A study of Mus musculus with 20 samples.

Results

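Normal mouse liver was set against liver holding a small colorectal metastasis, to ask which cell types and programs enter the tissue first and what its hepatocytes still express. The samples were taken by their labels: 2 libraries of con, normal liver at day 0, and 2 of Lt, low-content tumor at day 9, which are 4 of the 20 libraries of the series. Of the 54532 genes in the count table, 17187 passed an expression filter and were tested. Both groups are livers of C57BL/6 mice of WT genotype, which the Methods give as 6 to 8 weeks old and female while the labels say male. The con mice received normal saline, and the Lt mice received 1000000 Mc38 cells, a colon adenocarcinoma line of the same strain, injected into the spleen and carried by the portal blood to the liver. RNA came from small aliquots centered on the tumor, so an Lt library mixes tumor with the liver around it in a share that was not measured. The Methods prepared 2 livers for each of these groups. In the reported fit, a p-value measures only the spread between samples of a group. That spread was estimated over all replicated tissue groups of the series, and not over con and Lt alone. The con libraries held 16460310 and 17041650 counts and the Lt libraries 18178794 and 16398552. Levels are given as CPM scaled by edgeR's TMM factors. The floor of 3 counts stood at 0.266 and 0.248 CPM in con and at 0.215 and 0.194 in Lt. Levels in L-con (tumor-free liver remote from the tumor at day 12, 1 library), Mt3 (medium-content tumor, day 9) and Ht (high-content tumor, day 12) are set beside them without a test.

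Hepatocytes make up most of the liver's mass and secrete most plasma proteins, among them albumin, clotting factors and lipoproteins, while they also detoxify ammonia and drugs. Around them lie sinusoidal endothelial cells, resident macrophages called Kupffer cells, and vitamin A-storing stellate cells. A metastasis adds dividing tumor cells, activated fibroblasts with their matrix, and leukocytes drawn from the blood by chemokines, and inflammation makes hepatocytes secrete acute-phase proteins. In bulk tissue, fewer cells of a type and less RNA per cell cannot be told apart.

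The tissue label held in all 4 libraries. Alb, which encodes serum albumin, took 8.89% and 7.72% of all counts in con and 7.59% and 4.69% in Lt, against 6.8% in L-con. The summed level of 13 hepatocyte markers was 188063 and 162731 CPM in con and 159855 and 87278 CPM in Lt, lowest in Lt_2. By edgeR none of the 13 was called (0 with an unadjusted p under 0.05, 0 called by DESeq2, 1 higher in the 4-library edgeR fit, 1 higher without a filter), and their median log2 fold change was -0.25 (0.00 under total-count scaling). The Y-linked genes Ddx3y, Kdm5d, Uty and Eif2s3y were read in every con and Lt library, with Ddx3y at 125 and 101 CPM in con and 92.6 and 69.4 CPM in Lt. Xist, the RNA of the silenced X chromosome, had 0 counts in con_1, con_2 and Lt_1 and 2 counts in Lt_2. These values go with the male label of the 4 libraries and not with the female mice of the Methods. By edgeR none of the 4 Y-linked genes was called (0 with an unadjusted p under 0.05, 0 called by DESeq2), and their median log2 fold change was -0.36. The 1 pancreatic acinar gene tested, Cela1, stood at 19.9 and 38.0 CPM in con and 23.6 and 15.99 CPM in Lt and was not called, with log2 fold change -0.55, and the other 7 acinar genes were at 0 to 2 counts in these libraries. For erythroid genes, 0 of 6 were called by edgeR (0 with an unadjusted p under 0.05, 0 called by DESeq2, 1 higher without a filter), with a median of -0.13 (0.19 under total-count scaling) and the most abundant, Hbb-bs, at 192 and 98.8 CPM in con and 126 and 172 CPM in Lt. With each library left out in turn, medians ran from -0.66 to 0.06 (hepatocyte), -0.55 to -0.20 (sex-linked) and -0.26 to 0.35 (erythroid). Total-count scaling gave a median of -0.08 (sex-linked).

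From con to Lt, far more genes rose than fell. Called higher were 2133 genes (12.4% of those tested), and called lower were 44 (0.256%), by edgeR's quasi-likelihood F test at a Benjamini-Hochberg adjusted p of at most 0.05 and a log2 fold change of at least 1 in size. Both Lt libraries lay on the same side of both con libraries for every called gene, as they did for 10979 of all genes tested. The median log2 fold change of all tested genes was 0.10, and total-count scaling shifted it by 0.294. That median was -0.0012 in a fit of these 4 libraries alone and 0 without a filter. The count of higher genes was 1407 without con_1, 720 without con_2 and 913 without Lt_2, and that of lower genes was 18, 15, 22 and 4 without con_1, con_2, Lt_1 and Lt_2. In a fit of these 4 libraries alone, 1767 genes were higher and 304 lower, so higher genes made up 85.3% of the calls in place of 98.0%. The Lt libraries were not alike: Lt_2 was above Lt_1 for 1980 of the 2133 higher genes, with a median ratio of 1.73, while for genes of hepatocyte metabolism that ratio was 0.701. Further settings named below are a replicate block by sample number, a crossed block, chosen after seeing the data, in which the con numbers are swapped, Ht as 3 samples, and at least 10 counts in every library. Of the higher genes 202 had no count in either con library.

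Genes taken as marks of the tumor were read in both Lt libraries and were at 0 in con. Stra6, Flnc, Grem1 and Lgals7 were chosen from earlier results of these same data, so their levels are a description without a test. Stra6 (ENSMUSG00000032327, GRCm38 chr9:58063788-58153996), which encodes a receptor that takes up vitamin A, stood at 0 CPM in both con libraries and 24.6 and 68.7 CPM in Lt, a mean of 46.6 ± 31.2 CPM (SD, n = 2). Neither con library had a read. The Lt level was at least 186-fold higher, computed from counts pooled over each group against 3 counts in each con library. The sorted myeloid cells held Stra6 at 19.8 CPM, against 224 in Ht. Flnc, an actin crosslinker, stood at 0 CPM in both con libraries and 24.1 and 61.7 CPM in Lt, at least 171-fold higher. Grem1, a secreted antagonist of bone morphogenetic proteins, was at least 131-fold higher and Lgals7, a galectin, at least 126-fold higher. With these bounds in place of fitted values the median of the list was 7.23 on the log2 scale. Summed over the list, the level was 90.3 and 218 CPM in Lt, 22.7 in L-con, 155 and 189.6 in Mt3 and 575 on average in Ht. The epithelial carcinoma list, which hepatocytes and bile ducts share in part, had 1 of 9 called higher (median 0.38), against 12.4% of all genes. Its called member was Epcam, an epithelial adhesion protein that bile duct cells also carry, at 1.77 and 1.41 CPM in con and 6.66 and 4.27 CPM in Lt (log2 fold change 1.78, edgeR adjusted p = 0.0136). Epcam was at 1.54 CPM in Ht, and the keratin Krt8, the most abundant member, at 291 and 299 CPM in con and 447 and 246 CPM in Lt with overlapping groups. Krt20 and Cdx2, intestinal markers, were at 0 to 2 counts. By gene, edgeR's adjusted p was 0.0546, 0.11 and 0.0654 (Epcam) without con_1, con_2 and Lt_1 in turn. Leave-one-out medians ran from -0.16 to 1.15 (carcinoma). Under total-count scaling the median was 0.63 (carcinoma).

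The genes with the largest increases are given with their roles. The 15 largest by the naming rule were Stra6, Vcan, S100a6, Ccl2, Ccr1, Ptges, Phgdh, Pclaf, Emp1, Mmp9, Slit2, Col6a2, Psat1, Igfbp6 and Ly6c2. S100a6, a small calcium-binding protein of migrating and dividing cells, stood at 1.42 and 0.248 CPM in con and 263 and 649.8 CPM in Lt (log2 fold change 9.10, SE 0.91, edgeR adjusted p = 0.00132). Its lowest Lt value lay far above both con values, and its level in L-con was 43.7 CPM. Vcan, a large proteoglycan made by monocytes and fibroblasts, stood at 0 and 0.165 CPM in con and 101 and 231 CPM in Lt, a ratio of counts of 1981, with a 95% counting interval of 548 to 16365. Phgdh and Psat1, the opening enzymes of serine synthesis, rose by log2 fold changes of 6.35 and 5.96. Ptges, which makes prostaglandin E2, rose by 6.49, Emp1 by 6.18, the guidance ligand Slit2 by 6.05, Igfbp6, which binds insulin-like growth factors, by 5.94, and Col6a2, a chain of type VI collagen, by 6.00. In F4/80+ and CD11b+ cells sorted from medium-content tumors of day 11, Phgdh was at 19.1 CPM and Slit2 at 5.73 on average, against 201 and 119 in Ht, whereas Ccr1 was at 354 against 48.6.

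**Figure D1:**
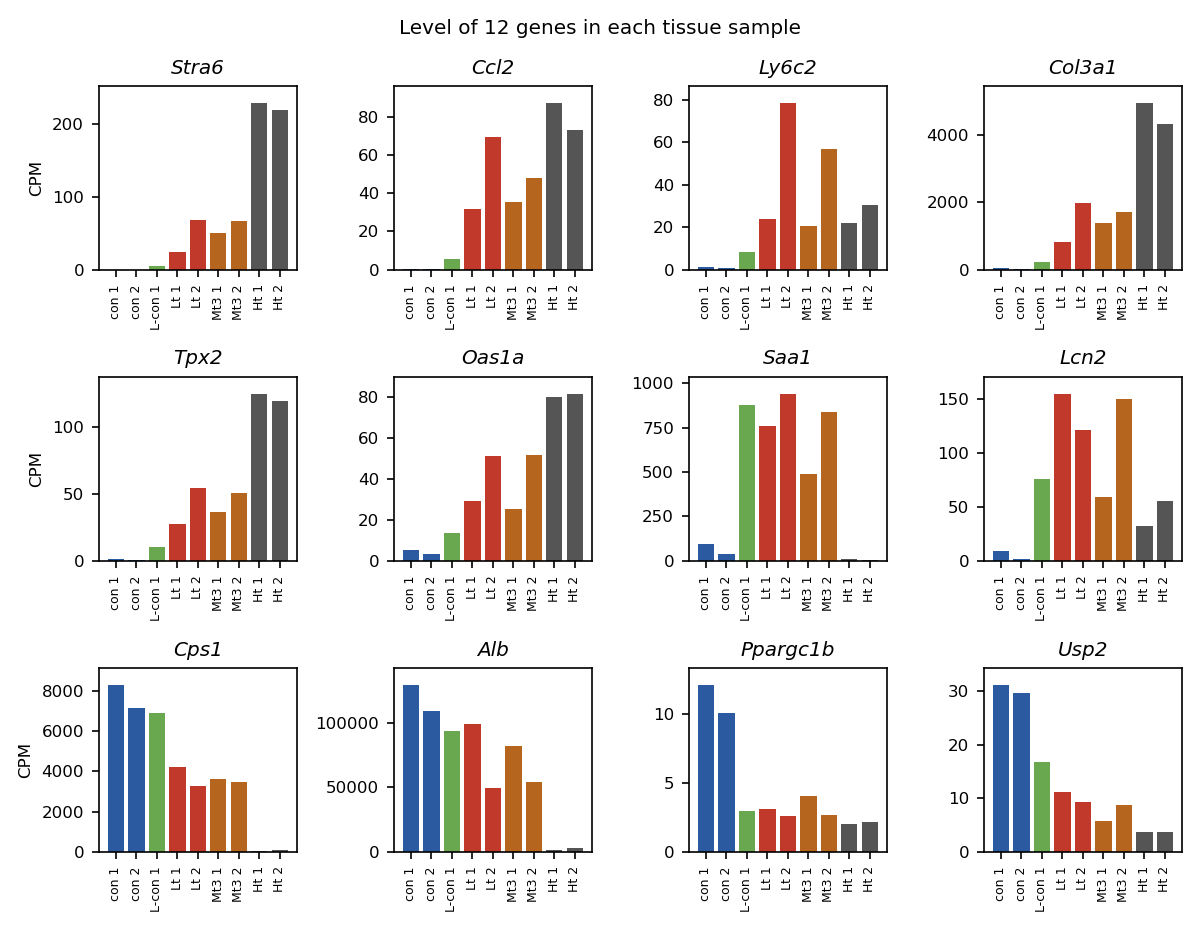
CPM of 12 genes in each tissue sample (bars, linear axes from 0; con blue, L-con green, Lt red, Mt3 brown, Ht gray; Ht 1 is the sum of 2 libraries). Stra6, Ccl2, Ly6c2, Col3a1, Tpx2, Oas1a, Saa1 and Lcn2 stand higher in both Lt bars than in both con bars, and Cps1, Alb, Ppargc1b and Usp2 stand lower, Cps1 and Alb without a call.

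Cell division genes were nearly all called: 44 of 46 tested cell cycle genes were called higher (32 without con_2, and 12.4% of all genes), with a median log2 fold change of 3.60. Tpx2 (ENSMUSG00000027469, GRCm38 chr2:152847964-152895321), a factor of the mitotic spindle, stood at 1.15 and 0.579 CPM in con and 27.8 and 54.6 CPM in Lt. Both Lt libraries were far above con, with Lt_2 at the top, and L-con lay between at 10.2 CPM. The log2 fold change was 5.58 (SE 0.50, edgeR adjusted p = 0.00123), from 5.01 without Lt_2 to 6.12 without con_1. Mybl2, a transcription factor of dividing cells, rose by 6.15, Bub1, a mitotic checkpoint kinase, by 5.55, Uhrf1, which maintains DNA methylation, by 5.30, and Pclaf, a PCNA-binding protein, by 6.25. Mki67, the Ki-67 antigen, stood at 4.69 and 2.89 CPM in con and 67.4 and 112 CPM in Lt (log2 fold change 4.57, SE 0.46, edgeR adjusted p = 0.00132). The most abundant member per length was Pcna, the sliding clamp of DNA replication, at 30.3 TPM in con and 76.6 TPM in Lt, with a log2 fold change of 1.03 (edgeR adjusted p = 0.0257). Among named genes, edgeR's adjusted p was 0.13, 0.132 and 0.204 (Pcna) without con_1, con_2 and Lt_2 in turn. The summed level of the list was 258 and 244 CPM in con, 1032 and 1789.8 in Lt, and 4009.7 on average in Ht. The sorted myeloid cells also express these genes (Mki67 at 164 CPM), and which cells carry them in Lt was not tested. The test no longer called Pcna under total-count scaling, by DESeq2 and in the 4-library fit.

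CCAAT letters are common in promoters, and those of a pair of cell cycle genes are printed. The RefSeq table of GRCm38.p6 promoters matched 11978 of the 17182 names tested. Within the 250 bases before the start, on either strand, CCAAT was found in 28 of 38 matched cell cycle promoters (73.7%) and in 36.3% of all matched promoters. The share is not particular to this list, as CCAAT was also found in 13 of 14 cholesterol synthesis promoters (92.9%), 11 of 13 of the MHC class I list (84.6%), 6 of 6 of the class II list and 11 of 14 of the unfolded protein response list (78.6%). Of genes called higher 36.6% held it (580 of 1585 matched promoters), and of genes called lower 25% (6 of 24). Below are the promoters of Bub1 (chr2:127831860-127832109, minus strand) and Mki67 (chr7:135716380-135716629, minus strand), 5′ to 3′ along each gene, with CCAAT or its reverse complement in capitals.
Bub1: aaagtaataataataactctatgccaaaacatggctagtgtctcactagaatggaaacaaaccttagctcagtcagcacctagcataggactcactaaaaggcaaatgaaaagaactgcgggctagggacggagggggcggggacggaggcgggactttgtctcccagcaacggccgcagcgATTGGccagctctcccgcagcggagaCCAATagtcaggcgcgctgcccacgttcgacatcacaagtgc
Mki67: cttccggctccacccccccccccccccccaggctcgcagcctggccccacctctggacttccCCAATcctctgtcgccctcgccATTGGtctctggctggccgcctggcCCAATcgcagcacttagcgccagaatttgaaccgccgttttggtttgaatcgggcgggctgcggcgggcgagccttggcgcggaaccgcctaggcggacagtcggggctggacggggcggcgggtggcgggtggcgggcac

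Fibroblast and matrix genes were mostly called higher. Of the fibroblast and myofibroblast markers 12 of 15 were called higher (12.4% of all genes), with a median of 2.79, and of the extracellular matrix genes 22 of 30, with a median of 2.41. Col3a1 (ENSMUSG00000026043, GRCm38 chr1:45311538-45349706), a fibrillar collagen and the most abundant fibroblast marker per length (7.66 TPM in con and 310.1 TPM in Lt), stood at 56.6 and 32.3 CPM in con and 835 and 1988 CPM in Lt. Neither group reached into the other, and L-con lay between at 233 CPM. Col3a1 rose by a log2 fold change of 4.99 (SE 0.63, edgeR adjusted p = 0.00194), from 4.23 without Lt_2 to 5.47 without Lt_1. Col1a1, the main chain of type I collagen, rose by 4.33. Fap, a protease of activated fibroblasts, had 1 count over con and a count ratio of 77.9 (95% counting interval 13.7 to 3109), and Timp1, an inhibitor of matrix proteases, stood at 0.443 and 0 CPM in con and 9.96 and 19.1 CPM in Lt (log2 fold change 6.04, SE 0.89). Among matrix genes the proteases led: Mmp3, stromelysin, had a count ratio of 536 (95% counting interval 95.9 to 21202), and Mmp9, gelatinase B, stood at 0.531 and 0.744 CPM in con and 29.6 and 60.6 CPM in Lt (log2 fold change 6.13, SE 0.53, edgeR adjusted p = 0.00122). By TPM the most abundant matrix gene was Col18a1 in con and Fn1, fibronectin, in Lt. Those were not called, with Col18a1 at 1361 and 1509 CPM in con and 924 and 847 CPM in Lt and Fn1 at 1732 and 1747 CPM in con and 1779.6 and 1634 CPM in Lt. List counts with single libraries left out were 5 (fibroblast) and 12 (matrix) without con_2, and 13 (matrix) without Lt_2. In single genes, edgeR's adjusted p was 0.0654 (Fap) without con_2.

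Markers of the quiescent stellate cell held no call, where 12.4% of all genes were called higher and 0.256% lower. By edgeR none of 11 was called (3 with an unadjusted p under 0.05, 1 lower by DESeq2, 1 lower in the 4-library edgeR fit, 1 lower without a filter, 1 lower without the fold threshold, 1 lower with the replicate block, 1 lower with the crossed block), with a median of -0.09 (0.21 under total-count scaling). Dcn, a small proteoglycan and their most abundant member in Lt, stood at 236 and 183 CPM in con and 339.9 and 337 CPM in Lt, and Ecm1, the most abundant in con, at 208 and 171 CPM in con and 108 and 111 CPM in Lt. The summed level of the list was 786 and 634 CPM in con and 707 and 669 in Lt. In the mesothelium list 1 of 6 was called (median 2.44), against 12.4% of all genes: Msln, mesothelin, which covering cells of the liver and some tumors express, stood at 0.531 and 0.165 CPM in con and 14.5 and 26.0 CPM in Lt (log2 fold change 5.86, SE 0.61, edgeR adjusted p = 0.00134) and at 126 CPM in Ht. Gpm6a, the most abundant mesothelial gene in con, stood at 3.19 and 1.41 CPM in con and 3.15 and 1.49 CPM in Lt with overlapping groups. Bile duct markers had 1 of 8 called (12.4% of all genes), Epcam, with a median of 1.13. Leaving out libraries gave counts of 0 (cholangiocyte) without con_2, and 0 (cholangiocyte) without Lt_1. Msln was called in each of those fits. Medians with a library left out ran from -0.18 to -0.03 (stellate), 0.41 to 5.28 (mesothelium) and 0.05 to 1.72 (cholangiocyte). Genes called higher numbered 2 of 6 (mesothelium) without a filter, 2 of 3 (mesothelium) in the 4-library fit, and 2 of 8 (cholangiocyte) without a filter.

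Monocytes reach the liver from the blood. Of its markers 8 of 9 were called higher (12.4% of all genes), with a median of 4.78, and their summed level was 15.1 and 10.9 CPM in con and 259.8 and 603 in Lt, a ratio of means of 33.2. The most abundant monocyte gene per length was Plac8, at 7.43 TPM in con and 97.9 TPM in Lt. Ly6c2 (ENSMUSG00000022584, GRCm38 chr15:75108158-75111970), the surface antigen that marks inflammatory monocytes, stood at 1.06 and 0.662 CPM in con and 24.0 and 78.6 CPM in Lt. Both Lt values exceeded both con values, and the means were 38.6 CPM in Mt3 and 26.1 in Ht. Its log2 fold change was 5.89 (SE 0.86, edgeR adjusted p = 0.00297), from 4.80 without Lt_2 to 6.49 without Lt_1. F13a1, a clotting transglutaminase of monocytes, rose by 5.67 and the membrane protein Ms4a4c by 5.34. Itgam, which encodes CD11b, stood at 0.708 and 0.0827 CPM in con and 7.67 and 12.4 CPM in Lt (log2 fold change 4.67, SE 0.78, edgeR adjusted p = 0.00486). Among monocyte genes, edgeR's adjusted p was 0.0525 (Itgam) without con_2.

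Macrophage genes were called higher in part, and Kupffer cell genes were not called. Of the macrophage markers 9 of 13 were higher (median 1.61), against 12.4% of all genes, and 1 lay below 0 at -1.12. Higher were Aif1 by 3.09, the Fc receptor Fcgr1 by 3.08 and lysozyme (Lyz2) by 2.31. Lyz2 was the most abundant macrophage gene per length in Lt (132 TPM in con and 825 TPM in Lt) and C1qa, a chain of complement C1q, in con (133 TPM in con and 501 TPM in Lt). Cd68, a lysosomal glycoprotein of macrophages, stood at 11.9 and 9.1 CPM in con and 27.3 and 38.5 CPM in Lt (log2 fold change 1.65, SE 0.28, edgeR adjusted p = 0.00536), and Adgre1, which encodes F4/80, at 47.2 and 29.5 CPM in con and 57.3 and 94.3 CPM in Lt without a call (log2 fold change 0.98, edgeR adjusted p = 0.0565). Ptprc, the CD45 antigen of all leukocytes, stood at 18.6 and 10.2 CPM in con and 37.7 and 87.5 CPM in Lt (log2 fold change 2.12, SE 0.45, edgeR adjusted p = 0.0137). The mannose receptor Mrc1 stood at 128 and 98.3 CPM in con and 94.3 and 102 CPM in Lt, Cd86, a costimulatory ligand, at 7.97 and 3.31 CPM in con and 10.2 and 15.9 CPM in Lt, and Nos2, inducible nitric oxide synthase, at 0 and 0.0827 CPM in con and 0.645 and 0.259 CPM in Lt, all without a call. In the lipid-associated macrophage list 5 of 12 were called (median 0.67), against 12.4% of all genes: Gpnmb (3.81), osteopontin (Spp1, 3.36), the integrin Itgax (3.04) and galectin-3 (Lgals3, 2.65) led. None of 12 Kupffer cell markers was called by edgeR (2 with an unadjusted p under 0.05, 1 higher by DESeq2, 2 higher in the 4-library edgeR fit, 4 higher without a filter, 2 higher under total-count scaling), with a median of 0.58, against 12.4% of all genes called higher. Their summed level was 1464 and 1227 CPM in con, 1668 and 1557 in Lt and 2182 in L-con, against 225 in Ht. Cd5l, a scavenger protein of Kupffer cells and their most abundant marker in Lt, stood at 159 and 115 CPM in con and 300.2 and 305 CPM in Lt, and C6, a complement protein that hepatocytes also make and the most abundant in con, at 456 and 403 CPM in con and 417 and 374 CPM in Lt. With a library left out, the counts were 1 (macrophage) and 1 (lipid-associated) without con_2, and 3 (macrophage) and 2 (lipid-associated) without Lt_2. By gene, edgeR's adjusted p was 0.0654 (Cd68), 0.0631 (Fcgr1) and 0.0606 (Lgals3) without con_2, 0.104 and 0.0828 (Lyz2), 0.133 and 0.133 (C1qa), 0.119 and 0.105 (Ptprc), and 0.125 and 0.143 (Itgax) without con_2 and Lt_2 in turn. The edgeR values were 0.114, 0.239 and 0.276 (Gpnmb) without con_1, con_2 and Lt_2 in turn. With each library left out in turn, medians ran from 0.28 to 2.05 (lipid-associated). Under total-count scaling the median was 0.88 (Kupffer cell). Other settings called 9 of 13 and 1 lower (macrophage) by DESeq2 and without a filter, and 8 of 13 and 1 lower (macrophage) in the 4-library fit. Calls were gained for Cd86 by DESeq2, with 3 Ht samples, with the crossed block and without con_1, Cd86 and Cd5l without a filter, Cd5l in the 4-library fit, and Adgre1 without Lt_1.

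Granulocyte and dendritic cell genes rose in part, from low levels. Of the neutrophil genes 6 of 13 were called (median 2.77, and 2.76 with genes at 0 in con set to their bounds), against 12.4% of all genes, Mmp9 first. Retnlg rose by 3.32, and S100a8, a calprotectin subunit, stood at 0.354 and 0.579 CPM in con and 4.01 and 2.91 CPM in Lt (log2 fold change 2.87, SE 0.39, edgeR adjusted p = 0.00229). Its partner S100a9 stood at 0.708 and 0.414 CPM in con and 6.45 and 1.29 CPM in Lt, higher in Lt_1 than in Lt_2 (log2 fold change 2.77, SE 0.74, edgeR adjusted p = 0.0369). Ly6g, the defining neutrophil antigen, had 0 counts in all 4 libraries and was not tested. Hdc, histidine decarboxylase and the most abundant neutrophil-list gene in con, stood at 8.41 and 6.7 CPM in con and 15.6 and 7.05 CPM in Lt with overlapping groups. Of the dendritic cell genes 6 of 10 were called (median 1.95), against 12.4% of all genes: the homing receptor Ccr7 (3.68), the chemokine Ccl22 (3.18) and the actin bundler Fscn1 (3.17) led. Fscn1 was their most abundant member (4.81 TPM in con and 54.9 TPM in Lt) and stood at 320.4 CPM in Ht against 48.4 in the sorted cells. All 10 dendritic cell genes together summed to 359 CPM in Ht. The mast cell and basophil list had 1 of 3 called (12.4% of all genes), Mcpt8, a basophil protease at 0 CPM in both con libraries and 0.287 and 0.647 CPM in Lt, at least 1.86-fold higher. Its median was 5.07, or 0.69 with the bounds, and Kit, the most abundant member, stood at 6.55 and 11.8 CPM in con and 17.7 and 12.0 CPM in Lt. The platelet list had 1 of 5 called, against 12.4% of all genes, Pf4, platelet factor 4, by 1.78 (median 1.13). List counts with single libraries left out were 0 (mast cell) and 0 (platelet) without con_1, 3 (neutrophil), 1 (dendritic cell), 0 (mast cell) and 0 (platelet) without con_2, 0 (platelet) without Lt_1, and 2 (dendritic cell), 0 (mast cell) and 0 (platelet) without Lt_2. Among named genes, edgeR's adjusted p was 0.0607 (Ccr7) without con_2, 0.125 and 0.153 (Mcpt8) without con_1 and con_2 in turn, 0.0984 and 0.0973 (Ccl22) without con_2 and Lt_2 in turn, 0.117, 0.209 and 0.215 (S100a9) without con_1, con_2 and Lt_1 in turn. The edgeR values were 0.134, 0.216, 0.101 and 0.155 (Pf4) without con_1, con_2, Lt_1 and Lt_2 in turn. Leave-one-out medians ran from 1.41 to 2.97 (dendritic cell), 2.78 to 5.42 (mast cell) and 0.58 to 1.20 (platelet). Called higher were 3 of 10 (dendritic cell) in the 4-library fit, 0 of 1 (mast cell) in the 4-library fit, 0 of 3 (mast cell) with the replicate block, and 0 of 5 (platelet) under total-count scaling. The test no longer called Pf4 under total-count scaling and with at least 10 counts in every library, S100a9 in the 4-library fit, and Mcpt8 with the replicate block.

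Lymphocyte genes were low, and T cell and cytotoxic genes split between the Lt libraries. B and plasma cell genes summed to 24.2 and 11.2 CPM in con and 64.6 and 52.7 in Lt. By edgeR none of 14 T cell genes was called (7 with an unadjusted p under 0.05, 3 higher by DESeq2, 7 higher without a filter, 2 higher with 3 Ht samples, 1 higher with the replicate block, 4 higher with the crossed block), with a median of 1.54, against 12.4% of all genes called higher. Their summed level was 19.4 and 5.96 CPM in con and 16.9 and 52.2 in Lt, so Lt_1 lay below con_1 and Lt_2 above both. Trbc2, a T cell receptor constant region and the most abundant T cell gene, stood at 1.24 and 0.993 CPM in con and 1.72 and 6.08 CPM in Lt. Of the cytotoxic and NK cell genes 3 of 12 were called (median 2.10), against 12.4% of all genes: Eomes at 0.354 and 0 CPM in con and 0.788 and 3.95 CPM in Lt, perforin (Prf1) at 0.354 and 0.165 CPM in con and 0.86 and 2.72 CPM in Lt and the receptor Klrk1 at 1.51 and 1.57 CPM in con and 6.02 and 12.8 CPM in Lt. Ifng, the gene of interferon gamma, was at 0 counts in con and at 2 and 4 in Lt and was not tested. Ccl5, a lymphocyte chemokine and the most abundant of this list, stood at 9.92 and 0.91 CPM in con and 5.37 and 21.2 CPM in Lt, where con_1 lay above Lt_1. Of the B and plasma cell genes 2 of 11 were called (median 1.35), against 12.4% of all genes. Ighm, the heavy chain of IgM, stood at 9.3 and 6.04 CPM in con and 38.8 and 29.4 CPM in Lt (log2 fold change 2.15, SE 0.32, edgeR adjusted p = 0.00301), higher in Lt_1, as were the immunoglobulin light chain Igkc (6.82 and 1.82 CPM in con and 13.8 and 6.92 CPM in Lt, not called) but not the B cell receptor subunit Cd79a (0.443 and 0.414 CPM in con and 1.07 and 1.75 CPM in Lt). Leaving out libraries gave counts of 1 (T cell), 0 (cytotoxic) and 1 (B cell) without con_1, 0 (cytotoxic) and 1 (B cell) without con_2, 4 (T cell) and 6 (cytotoxic) without Lt_1, and 0 (cytotoxic) and 1 (B cell) without Lt_2. In single genes, edgeR's adjusted p was 0.0584, 0.215 and 0.346 (Eomes), 0.118, 0.233 and 0.329 (Prf1), 0.0623, 0.0816 and 0.0663 (Klrk1), and 0.13, 0.169 and 0.24 (Cd79a) without con_1, con_2 and Lt_2 in turn. Medians with a library left out ran from 0.66 to 3.15 (T cell), 0.78 to 3.72 (cytotoxic) and 0.91 to 2.46 (B cell). Genes called higher numbered 6 of 12 (cytotoxic) by DESeq2, 8 of 13 (cytotoxic) without a filter, 1 of 9 (cytotoxic) in the 4-library fit, 4 of 11 (B cell) without a filter, and 1 of 8 (B cell) in the 4-library fit. With the crossed block they numbered 6 of 12 (cytotoxic). Calls ended for Prf1 under total-count scaling, and Eomes, Prf1 and Cd79a in the 4-library fit. Calls appeared for Trbc2, Ccl5 and Igkc without a filter, and Trbc2 with the crossed block and without Lt_1.

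Chemokines that attract monocytes were among the largest increases of all. In the list of chemokines and their receptors 18 of 32 were called higher (12.4% of all genes), with a median of 2.90 (2.57 with genes at 0 in con set to their bounds). Ccl2 (ENSMUSG00000035385, GRCm38 chr11:82035571-82037453), the chief ligand of the monocyte receptor CCR2, stood at 0.531 and 0.496 CPM in con and 31.6 and 69.4 CPM in Lt. Both Lt libraries lay far above con. The rise had a log2 fold change of 6.60 (SE 0.68, edgeR adjusted p = 0.00134), from 5.93 without Lt_2 to 7.04 without Lt_1. Ccl7 and Ccl12, neighbors of Ccl2 that bind the same receptor, had a count ratio of 151 (95% counting interval 41.4 to 1249) and a level at least 37.5-fold higher. Ccl11, eotaxin, was at least 5.17-fold higher, and the receptor Ccr1 stood at 0.177 and 0.165 CPM in con and 10.0 and 22.6 CPM in Lt. By TPM the most abundant member was Cxcl12, a constitutive chemokine of liver stroma, in con and Ccl2 in Lt. Cxcl12 stood at 374 and 380.5 CPM in con and 305 and 235 CPM in Lt and was not called. Of the inflammatory cytokines 5 of 14 were called (median 2.74), against 12.4% of all genes. Lif was at least 14.4-fold higher, Tnf had a count ratio of 17.9 (95% counting interval 4.67 to 152), and Csf1, the growth factor of macrophages, stood at 7.35 and 7.28 CPM in con and 38.6 and 85.6 CPM in Lt (log2 fold change 3.08, SE 0.44, edgeR adjusted p = 0.00276). Csf1 was their most abundant member in Lt, and Il18, the most abundant in con, stood at 11.2 and 8.85 CPM in con and 12.2 and 11.6 CPM in Lt without a call. Csf2 and Csf3 had 0 counts in all 4 libraries. Among immune checkpoints 2 of 11 were called (median 1.75), against 12.4% of all genes, Cd274, which encodes PD-L1, at 1.68 and 3.23 CPM in con and 9.1 and 12.2 CPM in Lt (log2 fold change 2.11, SE 0.41, edgeR adjusted p = 0.00989) and Vsir, a myeloid checkpoint, by 1.26, whereas Lgals9, their most abundant member, stood at 703 and 707 CPM in con and 723 and 482 CPM in Lt. With a library left out, the counts were 4 (checkpoint) without con_1, 8 (chemokine), 1 (cytokine) and 1 (checkpoint) without con_2, and 3 (cytokine) and 0 (checkpoint) without Lt_2. By gene, edgeR's adjusted p was 0.0667 (Ccl11) and 0.0507 (Lif) without con_2, 0.0697 and 0.0664 (Cd274) without con_1 and Lt_2 in turn, 0.15 and 0.164 (Vsir) without con_2 and Lt_2 in turn, 0.078, 0.226, 0.0536 and 0.227 (Tnf) without con_1, con_2, Lt_1 and Lt_2 in turn. With each library left out in turn, medians ran from 0.87 to 2.96 (checkpoint). Other settings called 3 of 14 (cytokine) under total-count scaling, 9 of 16 (cytokine) without a filter, 6 of 11 (checkpoint) by DESeq2, and 6 of 12 (checkpoint) without a filter. With the crossed block 5 of 11 (checkpoint) were called. Calls were lost for Tnf under total-count scaling.

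**Figure D2:**
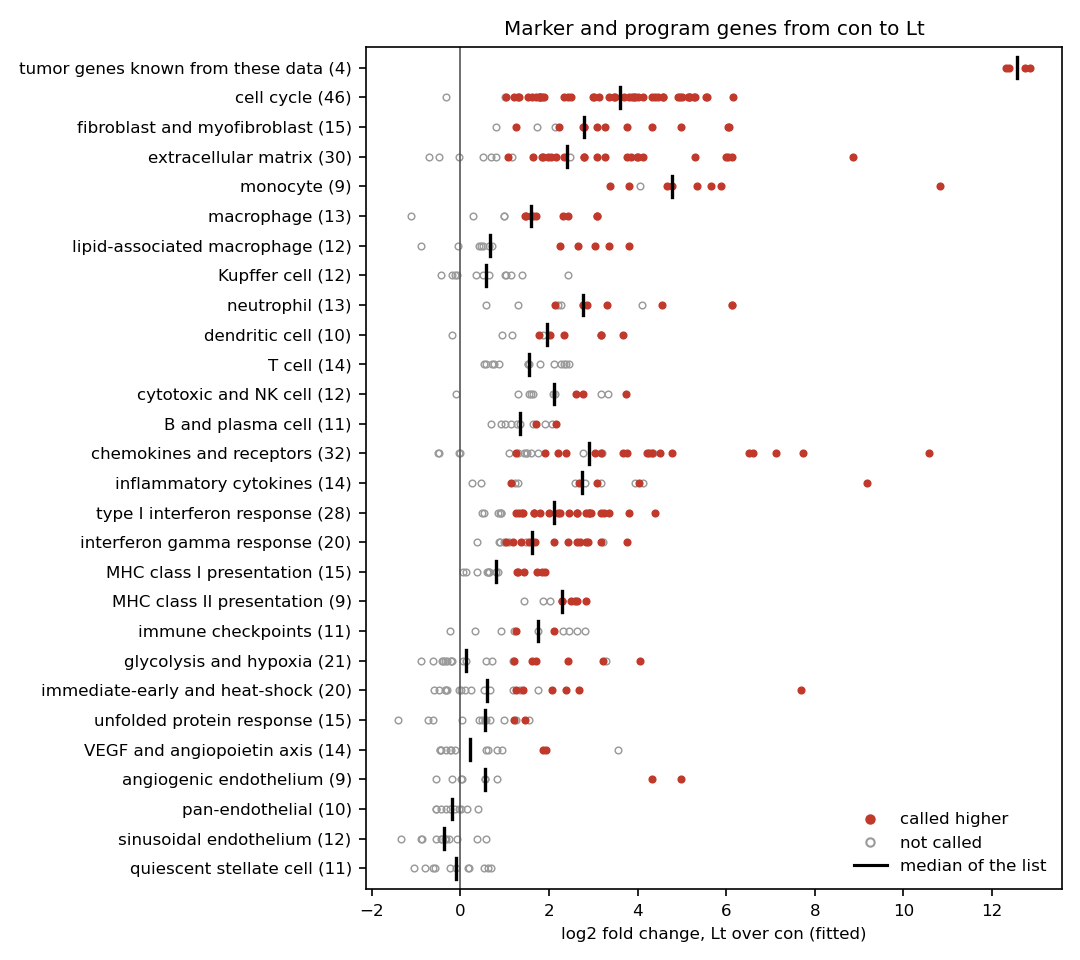
Fitted log2 fold change from con to Lt of each tested member of 28 lists (red points called higher, open gray points not called, black bars list medians, number of members tested in brackets). Among the lists drawn, medians run from 12.56 for the 4 tumor genes, whose con counts are 0 so that their fitted values are no bounds, and 4.78 for monocyte markers to -0.38 for sinusoidal endothelium. Over all lists, the mast cell list had a fitted median of 5.07 and the circadian clock list one of -0.63.

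Most interferon-induced genes tested were called higher. Of the type I interferon response genes 22 of 28 were called higher (median 2.11), against 12.4% of all genes, and of the interferon gamma response genes 13 of 20 (median 1.62). Oas1a (ENSMUSG00000052776, GRCm38 chr5:120896256-120907521), an antiviral enzyme that makes 2-5A, stood at 5.22 and 3.23 CPM in con and 28.9 and 51.1 CPM in Lt. Both Lt libraries exceeded both con libraries, and L-con stood at 13.6 CPM. Its log2 fold change was 3.25 (SE 0.46, edgeR adjusted p = 0.00269), from 2.77 without Lt_2 to 3.62 without con_1. Its relative Oas3 rose by 4.39, Ifi27l2a by 3.82 and the nucleic acid sensor Zbp1 by 3.35. Bst2, tetherin and the most abundant type I member, stood at 248 and 229.8 CPM in con and 421 and 483 CPM in Lt, with an adjusted p of 0.0407 in the edgeR test and a log2 fold change of 0.92, short of the fold threshold. Among the gamma response genes, the chemokine Cxcl10 stood at 3.54 and 3.23 CPM in con and 20.9 and 71.3 CPM in Lt (log2 fold change 3.77, SE 0.61, edgeR adjusted p = 0.00435), and the feedback inhibitor Socs1 rose by 3.19. Iigp1, an immunity GTPase and their most abundant member, stood at 553 and 504 CPM in con and 757 and 610.5 CPM in Lt and was not called. Ciita, the master regulator of MHC class II transcription, rose by 2.84. The sorted myeloid cells carry many of these genes too, with Oas1a at 258 CPM on average, and their share in the rise was not tested. List counts with single libraries left out were 12 (type I) and 2 (gamma) without con_2, and 2 (gamma) without Lt_2. Among named genes, edgeR's adjusted p was 0.0576 (Cxcl10) without con_2, 0.0754 and 0.0525 (Ciita) without con_2 and Lt_2 in turn.

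Many of these promoters hold the letters TTCNNTTTC, a core of the interferon-stimulated response element (ISRE). On either strand of the 250 bases before the start they were found in 10 of 18 matched type I promoters (55.6%), in 12 of 14 of the gamma list (85.7%) and in 6.48% of all 11978 matched promoters. Of genes called higher 9.09% held them (144 of 1585 matched promoters), and of genes called lower 4.17% (1 of 24). Shown are the promoters of Oas1a (chr5:120907526-120907775, minus strand), Oas3 (chr5:120777660-120777909, minus strand) and Cxcl10 (chr5:92348890-92349139, minus strand), from the same RefSeq table, with the letters or their reverse complement in capitals.
Oas1a: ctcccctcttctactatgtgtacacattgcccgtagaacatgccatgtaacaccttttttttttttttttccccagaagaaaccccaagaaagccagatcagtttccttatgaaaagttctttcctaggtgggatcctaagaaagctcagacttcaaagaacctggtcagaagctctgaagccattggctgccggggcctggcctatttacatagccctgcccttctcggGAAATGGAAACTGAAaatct
Oas3: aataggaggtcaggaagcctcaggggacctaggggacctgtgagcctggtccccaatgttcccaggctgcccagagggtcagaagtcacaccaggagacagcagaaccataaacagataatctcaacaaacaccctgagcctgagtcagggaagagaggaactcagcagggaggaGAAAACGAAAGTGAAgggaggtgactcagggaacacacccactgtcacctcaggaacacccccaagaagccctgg
Cxcl10: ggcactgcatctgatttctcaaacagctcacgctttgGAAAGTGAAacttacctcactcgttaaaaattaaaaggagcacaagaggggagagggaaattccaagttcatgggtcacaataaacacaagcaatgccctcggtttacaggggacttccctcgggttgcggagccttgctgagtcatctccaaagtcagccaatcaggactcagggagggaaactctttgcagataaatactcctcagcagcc

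Antigen presentation genes were called higher in part. Of the class II genes 6 of 9 were called (median 2.30) and of the class I genes 6 of 15 (median 0.81), against 12.4% of all genes. H2-Ab1, a class II beta chain, stood at 87.1 and 26.1 CPM in con and 224 and 456 CPM in Lt (log2 fold change 2.59, SE 0.59, edgeR adjusted p = 0.0185) and H2-Eb1 rose by 2.49. Cd74, the invariant chain and their most abundant member, stood at 261 and 76.0 CPM in con and 442 and 920.3 CPM in Lt and missed the call (edgeR adjusted p = 0.0546, log2 fold change 2.02). The con libraries differed here: class II genes summed to 541 CPM in con_1 and 153 in con_2, against 1085 and 2246 in Lt. In class I, the immunoproteasome subunit Psmb8 rose by 1.90 and the peptide transporter Tap1 by 1.74, whereas B2m, the shared light chain and the most abundant member, stood at 2199 and 1966 CPM in con and 2222 and 2123 CPM in Lt. Leaving out libraries gave counts of 0 (class II) and 0 (class I) without con_2, and 1 (class II) and 0 (class I) without Lt_2. In single genes, edgeR's adjusted p was 0.0953 and 0.127 (H2-Ab1), 0.111 and 0.202 (H2-Eb1), 0.0944 and 0.0718 (Psmb8), and 0.0809 and 0.0537 (Tap1) without con_2 and Lt_2 in turn. Leave-one-out medians ran from 1.74 to 3.59 (class II). The test also called Cd74 under total-count scaling, by DESeq2, without a filter, with 3 Ht samples, with the crossed block, without con_1 and without Lt_1.

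Most vessel genes were not called, like most genes tested, of which 12.4% were called higher and 0.256% lower. By edgeR none of 12 sinusoidal endothelial markers was called (2 with an unadjusted p under 0.05, 0 called by DESeq2, 1 lower without a filter), with a median of -0.38, and none of 10 pan-endothelial markers (0 with an unadjusted p under 0.05, 0 called by DESeq2), with a median of -0.18 (0.12 under total-count scaling). Clec4g, the most abundant sinusoidal gene per length, stood at 69.6 and 76.7 CPM in con and 139.9 and 79.8 CPM in Lt. Lyve1, a hyaluronan receptor of sinusoids, stood at 114 and 24.0 CPM in con and 23.5 and 30.4 CPM in Lt, so con_1 stood alone and con_2 lay between the Lt libraries. Pecam1, which encodes CD31, stood at 58.3 and 40.8 CPM in con and 54.4 and 43.3 CPM in Lt. In the angiogenic list 2 of 9 were called (median 0.55), against 12.4% of all genes. Cd34 (ENSMUSG00000016494, GRCm38 chr1:194938819-194961279), a sialomucin of capillary endothelium and progenitors, stood at 5.75 and 1.65 CPM in con and 52.8 and 95.4 CPM in Lt. Both Lt values lay far above con and below the Ht mean of 203 CPM. Cd34 rose by a log2 fold change of 4.33 (SE 0.58, edgeR adjusted p = 0.00229), from 3.67 without con_2 to 5.47 without con_1. Apln, a ligand of tip cells, rose by 4.99, while Plvap, the most abundant member, stood at 80.9 and 71.5 CPM in con and 84.8 and 70.7 CPM in Lt. Mcam, which encodes CD146, stood at 12.0 and 8.77 CPM in con and 21.1 and 20.9 CPM in Lt (log2 fold change 1.02, SE 0.23, edgeR adjusted p = 0.0171). S100a4, a metastasis-linked calcium-binding protein, had 2 counts over con and 10 and 28 in Lt, and was not called (edgeR adjusted p = 0.0729). In the VEGF and angiopoietin list 2 of 14 were called (median 0.23), against 12.4% of all genes, Vegfd by 1.94 and Angpt1 by 1.87, and Vegfa, the most abundant, stood at 83.7 and 104 CPM in con and 87.4 and 75.8 CPM in Lt. With a library left out, the counts were 1 (VEGF) without con_1, 0 (VEGF) without con_2, and 0 (VEGF) without Lt_2. By gene, edgeR's adjusted p was 0.157 and 0.162 (Angpt1) without con_2 and Lt_2 in turn, 0.0941, 0.211 and 0.21 (Vegfd) without con_1, con_2 and Lt_2 in turn, 0.139, 0.0544 and 0.0839 (Mcam) without con_2, Lt_1 and Lt_2 in turn. Medians with a library left out ran from -0.35 to 0.01 (pan-endothelial), 0.11 to 0.79 (angiogenic) and 0.03 to 0.25 (VEGF). Total-count scaling gave a median of -0.10 (sinusoidal), 0.83 (angiogenic) and 0.52 (VEGF). Genes called higher numbered 1 of 14 (VEGF) under total-count scaling. Calls ended for Vegfd under total-count scaling and with at least 10 counts in every library, and Mcam by DESeq2 and in the 4-library fit. Calls appeared for S100a4 by DESeq2, Lyve1 and S100a4 without a filter, and Lyve1 without con_2.

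Sugar use and immediate-early lists were called higher in part, and the unfolded protein response list at about the share of all genes. In the glycolysis and hypoxia list 6 of 21 were called (median 0.12), against 12.4% of all genes: the lactate exporter Slc16a3 (4.05), the pyruvate kinase Pkm (3.21) and the hexokinase Hk2 (2.44) led, isoforms that hepatocytes make little of. Pkm stood at 33.5 and 22.7 CPM in con and 162 and 359 CPM in Lt, and Ldha, the most abundant member, at 1054 and 987 CPM in con and 1279.5 and 934 CPM in Lt. Of the immediate-early and heat-shock genes 6 of 20 were called (median 0.60), against 12.4% of all genes. Egr3 was at least 5.04-fold higher, Fosb had a count ratio of 6.63 (95% counting interval 2.02 to 34.3), and Atf3 rose by 2.07, while Hspb1, the most abundant, stood at 28.2 and 42.6 CPM in con and 45.8 and 30.4 CPM in Lt. In the unfolded protein response list 2 of 15 were called (median 0.57), against 12.4% of all genes, the chaperone helpers Creld2 at 24.6 and 37.8 CPM in con and 96.2 and 76.0 CPM in Lt and Sdf2l1 at 28.8 and 34.2 CPM in con and 82.3 and 64.7 CPM in Lt. Both stood higher in Lt_1 than in Lt_2, and also in L-con (101 and 81.2 CPM). Herpud1, the most abundant in con, stood at 832 and 747 CPM in con and 377 and 218 CPM in Lt, and calreticulin (Calr), the most abundant in Lt, at 677 and 829 CPM in con and 1144 and 1088 CPM in Lt, both without a call. List counts with single libraries left out were 1 (unfolded protein) without con_1, 1 (glycolysis), 1 (immediate-early) and 1 (unfolded protein) without con_2, 0 (unfolded protein) without Lt_1, and 3 (glycolysis), 3 (immediate-early) and 0 (unfolded protein) without Lt_2. Among named genes, edgeR's adjusted p was 0.0522 (Slc16a3) and 0.0547 (Hk2) without con_2, 0.0781 and 0.0622 (Atf3) without con_2 and Lt_2 in turn, 0.106, 0.0825 and 0.0771 (Fosb) without con_1, con_2 and Lt_2 in turn. The edgeR values were 0.158, 0.0702, 0.0959 and 0.0718 (Creld2), and 0.162, 0.116, 0.119 and 0.0764 (Sdf2l1) without con_1, con_2, Lt_1 and Lt_2 in turn. With each library left out in turn, medians ran from 0.06 to 0.22 (glycolysis). Under total-count scaling the median was 0.39 (glycolysis) and 0.91 (immediate-early). Other settings called 4 of 15 and 1 lower (unfolded protein) without a filter, and 2 of 15 and 1 lower (unfolded protein) in the 4-library fit. With the crossed block 4 of 15 (unfolded protein) were called higher. Calls were lost for Fosb in the 4-library fit. Calls were gained for Herpud1 without a filter and in the 4-library fit.

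Set against Ht, the lists stood at different shares of their Ht level in Lt. The mean summed CPM of Lt was 26.8% of Ht for the tumor genes, 32.5% for fibroblast genes, 35.2% for cell cycle genes, 32.0% for dendritic cell genes, 42.0% for neutrophil genes and 44.5% for monocyte genes. It was 57.7% for macrophage genes, 74.8% for T cell genes, 79.5% for type I interferon genes and 226% for MHC class II genes, whose sum stood lower in Ht. In that order, total-count scaling gave 15.05%, 18.1%, 19.5%, 17.8%, 22.95%, 24.9%, 31.8%, 42.4%, 43.5% and 126%. The dendritic cell sum in Ht, 359 CPM, came mostly from Fscn1, and Mmp9 was the most abundant neutrophil-list gene per length in Lt. These ratios were not tested, and each pools Lt libraries that were not alike. Each also counts what normal liver already holds, so a high share alone does not show early entry. In con, T cell genes summed to 19.4 and 5.96 CPM and type I interferon genes to 723 and 675.5. Macrophage genes summed to 887 and 569 CPM there, and class II genes to 541 and 153. Monocyte genes summed to 15.1 and 10.9 CPM in con, and tumor genes to 0. By TMM, the share was 98.3% for chemokine genes, 103% for B cell genes and 196% for interferon gamma genes. T cell genes summed to 16.9 CPM in Lt_1 and 52.2 in Lt_2, against 46.2 on average in Ht. Macrophage genes summed to 1514 and 2427 CPM, against 3416, so in Lt_1 alone the T cell share lay below the macrophage share. Tumor genes stood at 90.3 and 218 CPM against 575, fibroblast genes at 1380 and 2966 against 6685, and monocyte genes at 259.8 and 603 against 969. In L-con, where the tumor genes summed to 22.7 CPM, monocyte genes summed to 98.7 CPM, fibroblast genes to 444, macrophage genes to 1352 and class II genes to 893, each above both con libraries.

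**Figure D3:**
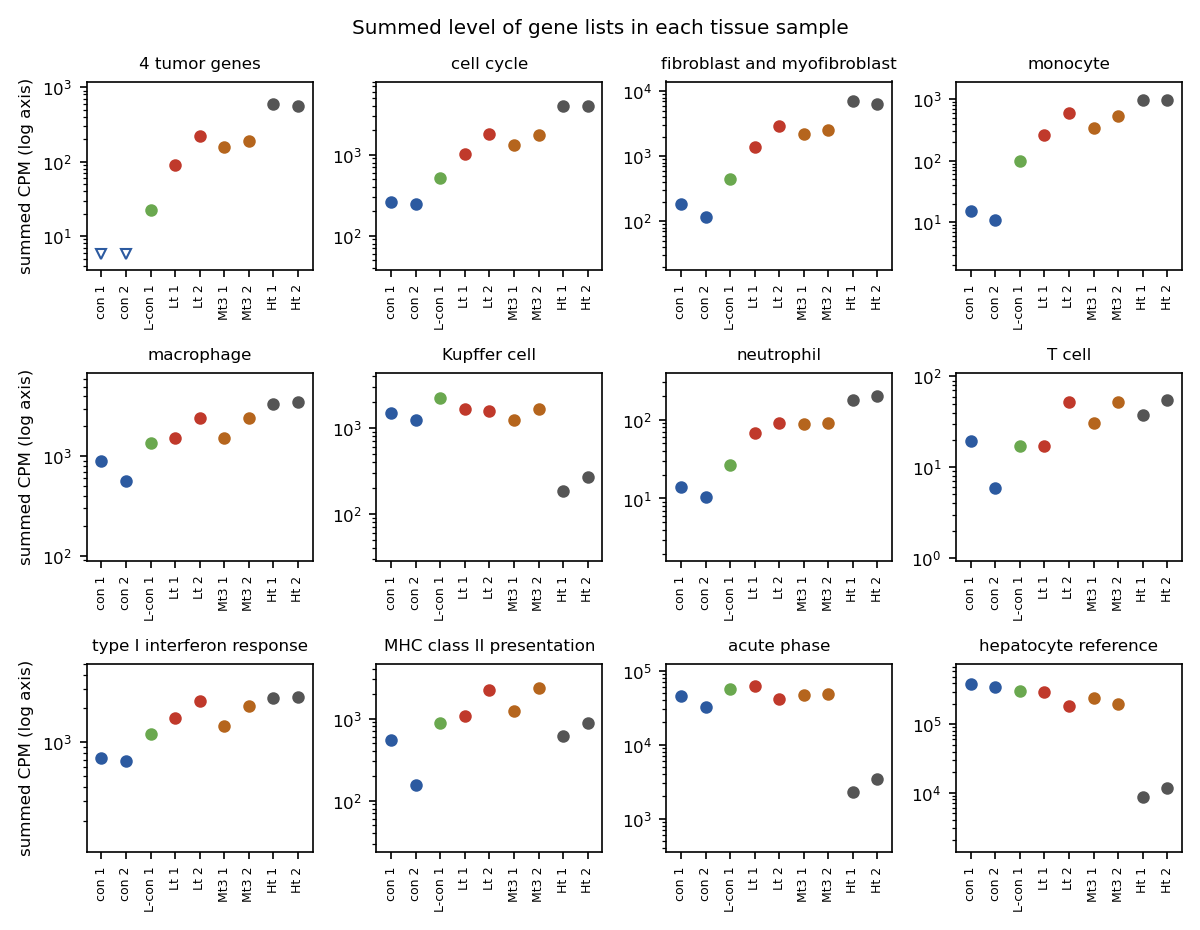
Summed CPM of 12 lists in each tissue sample on log axes (con blue, L-con green, Lt red, Mt3 brown, Ht gray; Ht 1 is the sum of 2 libraries; open triangles are sums of 0 drawn at the foot). Monocyte genes rise from 15.1 and 10.9 CPM in con to 259.8 and 603 in Lt, and Kupffer cell genes stand at 1464 and 1227 CPM in con and 1668 and 1557 in Lt.

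Most hepatocyte genes stood lower in Lt, and how many were called lower turned on the fit. A reference of 179 genes of hepatocyte metabolism and secretion, of which 177 were tested, showed a median log2 change of -0.69, or 61.8% of the con level, with quartiles at -0.995 and -0.50 and 169 values below 0. The median was -0.47 without Lt_2, -1.02 without Lt_1 and -0.44 under total-count scaling. Over all hepatocyte lists, 375 genes were tested and 7 called higher and 0 called lower by edgeR in the fit of 13 samples, against 12.4% and 0.256% of all genes (10 and 13 with an unadjusted p under 0.05, and 6 and 9 by DESeq2). The edgeR fit of only the 4 libraries called 12 higher and 55 lower, and the fit without a filter 16 and 67. With the Ht libraries as 3 samples 3 were lower, with a replicate block 7, with a crossed block 4 and under total-count scaling 1. Both Lt libraries lay below both con libraries for 238 of them, against 4587 of the 17187. Among genes of ammonia disposal, none of 8 urea cycle genes was called by edgeR (1 with an unadjusted p under 0.05, 1 lower by DESeq2, 2 lower in the 4-library edgeR fit, 3 lower without a filter), with a median of -0.97. Cps1 (ENSMUSG00000025991, GRCm38 chr1:67123026-67231259), the opening enzyme of the cycle, stood at 8324 and 7157 CPM in con and 4213 and 3286 CPM in Lt, means of 7741 ± 825 CPM (SD, n = 2) and 3749 ± 655 CPM (SD, n = 2). The groups did not overlap, and L-con stayed near con at 6929 CPM. Its log2 fold change was -1.05 (SE 0.94, edgeR adjusted p = 0.478), from -1.25 without Lt_1 to -0.88 without Lt_2. The mean of Ht was 61.4 CPM. Further log2 fold changes were -0.86 for Otc, -1.20 for Ass1, -1.45 for Asl, -0.68 for Nags, -0.90 for the ornithine carrier Slc25a15 and -1.15 for the aspartate carrier Slc25a13. Ass1, argininosuccinate synthase, was the most abundant per length (3901 TPM in con and 2040.4 TPM in Lt). The test also called Asl by DESeq2, Ass1, Asl and Slc25a13 without a filter, and Asl and Slc25a13 in the 4-library fit.

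Other hepatic functions are given list by list, and genes of several of these lists make up the reference. The medians were -0.98 for 35 genes of amino acid breakdown, -0.88 for 29 cytochromes P450, -0.77 for 22 of bile acid synthesis and transport, -0.75 for 16 of gluconeogenesis and sugar handling, -0.72 for 33 of fatty acid oxidation and ketogenesis, -0.70 for 40 of conjugation and other drug metabolism and -0.69 for 17 of lipogenesis. None of these genes was called in either direction by edgeR in the reported fit of 13 samples (in that order 1, 1, 3, 0, 1, 0 and 1 with an unadjusted p under 0.05, and 1, 1, 2, 0, 0, 0 and 0 called lower by DESeq2). In the same order, edgeR called lower 13, 7, 7, 2, 5, 7 and 2 of them in the fit of only the 4 libraries and 15, 7, 6, 4, 6, 8 and 2 without a filter. With the replicate block 2 P450 and 2 bile acid genes were lower, and with the crossed block 1 and 1. Total-count scaling and 3 Ht samples each called 1 bile acid gene lower. Gnmt, which methylates glycine, stood at 3891 and 3095 CPM in con and 1727 and 1285 CPM in Lt. Cyp2e1, an ethanol-oxidizing P450, stood at 5828 and 9087 CPM in con and 3910.0 and 3308 CPM in Lt, and Slc27a5, which activates bile acids, at 1233 and 1337 CPM in con and 928 and 662 CPM in Lt. Each of these lay lower in both Lt libraries than in con and was the most abundant of its list. Scd1, stearoyl-CoA desaturase, stood at 22725 and 15445 CPM in con and 13319 and 7677 CPM in Lt and Gstp1, a glutathione transferase, at 1598 and 1555 CPM in con and 1271 and 994 CPM in Lt. Fabp1, the liver fatty acid-binding protein, stood at 1640.3 and 3340.4 CPM in con and 2415 and 1798 CPM in Lt. Mgst1, a microsomal transferase, stood at 3237 and 4213 CPM in con and 4049 and 2609.9 CPM in Lt, and both had overlapping groups. Transcription factors of the hepatocyte had 0 of 20 called by edgeR (1 with an unadjusted p under 0.05, 0 called by DESeq2, 1 higher and 3 lower in the 4-library edgeR fit, 1 higher and 3 lower without a filter, 1 lower with the crossed block) and a median of -0.55, their most abundant member Cebpa at 833 and 955 CPM in con and 671 and 555 CPM in Lt. Genes of the pericentral zone had 0 of 11 called by edgeR (1 with an unadjusted p under 0.05, 0 called by DESeq2, 2 lower without a filter, 1 higher under total-count scaling) and a median of -0.50, and of the periportal zone 1 of 11 higher (12.4% of all genes) and a median of -1.05. The periportal gene called was Ctsc, cathepsin C, at 149.9 and 120.0 CPM in con and 236 and 332 CPM in Lt (log2 fold change 1.07, SE 0.25, edgeR adjusted p = 0.0202), which the sorted myeloid cells hold at 2227 CPM. Female-biased genes had 0 of 5 called by edgeR (2 with an unadjusted p under 0.05, 2 lower by DESeq2, 1 lower in the 4-library edgeR fit, 3 lower without a filter, 1 lower with 3 Ht samples, 1 lower with the replicate block) with a median of -3.83, where Cyp2a4 stood at 58.9 and 0.248 CPM in con and 0.215 and 0.0647 CPM in Lt and Cyp3a16 at 2.83 and 5.21 CPM in con and 0.573 and 0 CPM in Lt. In single genes, edgeR's adjusted p was 0.0567, 0.152 and 0.168 (Ctsc) without con_1, con_2 and Lt_2 in turn. Leave-one-out medians ran from -1.04 to -0.45 (fatty acid oxidation), -1.08 to -0.45 (conjugation), -1.02 to -0.35 (lipogenesis), -0.90 to -0.32 (transcription factor), -0.79 to -0.43 (pericentral) and -8.14 to -1.15 (female-biased). Total-count scaling gave a median of -0.50 (bile acid), -0.48 (gluconeogenesis), -0.45 (fatty acid oxidation), -0.44 (conjugation), -0.44 (lipogenesis), -0.28 (transcription factor) and -0.24 (pericentral). Genes called higher numbered 0 of 11 and 1 lower (periportal) by DESeq2, 1 of 11 and 6 lower (periportal) without a filter, and 1 of 11 and 3 lower (periportal) in the 4-library fit. Calls ended for Ctsc by DESeq2. Calls appeared for Gnmt and Cyp3a16 without a filter and in the 4-library fit, and Cyp2a4 by DESeq2 and without a filter.

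Secretory and sterol lists held 1 call. Lipoprotein genes had a median of -0.37 (0 of 20 called), coagulation genes -0.53 (0 of 16), complement genes -0.11 (0.17 under total-count scaling, 0 of 17), iron genes -0.33 (0 of 15), hepatokines and the growth hormone axis -0.49 (1 of 21 called higher, against 12.4% of all genes) and cholesterol synthesis -0.01 (0.29 under total-count scaling, 0 of 21). By edgeR at an unadjusted p under 0.05 these lists held 0, 0, 0, 1, 2 and 0 genes, and DESeq2 called 0, 0, 0, 1, 1 and 0. The edgeR fit of only the 4 libraries called 0, 1, 0, 2, 3 and 0 of them lower, and the fit without a filter 1, 1, 0, 2, 3 and 0. Each of those fits also called 2 iron genes higher. With 3 Ht samples, the replicate block or the crossed block, 1 iron gene was lower. Apoa2, an apolipoprotein of high-density particles, stood at 6220.3 and 7412 CPM in con and 7082 and 4047 CPM in Lt. Kng1, kininogen, stood at 2722 and 2339.8 CPM in con and 2407 and 1727 CPM in Lt and C3, the central complement protein, at 12039 and 7967 CPM in con and 8552 and 7049 CPM in Lt, all with overlapping groups. Selenop, which carries selenium in plasma, stood at 6169.9 and 6565 CPM in con and 4340.5 and 3244 CPM in Lt. Ferritin heavy chain (Fth1) stood at 2143 and 1947 CPM in con and 1769.5 and 1477 CPM in Lt. Each was the most abundant of its list per length, Fth1 in Lt and Hamp, the iron hormone hepcidin, in con, where Hamp stood at 1125 and 968 CPM in con and 542 and 415 CPM in Lt. The hepatokine called was Inhba, an activin chain, at 4.52 and 12.2 CPM in con and 31.5 and 42.4 CPM in Lt (log2 fold change 2.14, SE 0.42, edgeR adjusted p = 0.00984), and at 59.4 CPM in Ht. By gene, edgeR's adjusted p was 0.0653 (Inhba) without Lt_2. With Ctsc and Inhba, 5 acute-phase genes made up the 7. Medians with a library left out ran from -0.71 to -0.07 (lipoproteins), -0.85 to -0.32 (coagulation), -0.33 to 0.01 (complement), -0.49 to -0.21 (iron), -0.66 to -0.25 (hepatokine) and -0.28 to 0.20 (cholesterol). Under total-count scaling the median was -0.11 (lipoproteins), -0.26 (coagulation), -0.05 (iron) and -0.21 (hepatokine). Other settings called 3 of 21 and 3 lower (hepatokine) without a filter, 2 of 21 and 3 lower (hepatokine) in the 4-library fit, and 1 of 21 and 1 lower (hepatokine) with the replicate block. Calls were gained for Hamp without a filter and in the 4-library fit.

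Acute-phase genes had the highest median of the hepatocyte lists (0.54 against 0.10 for all genes), with 5 of 25 called higher, against 12.4% of all genes. Saa1 (ENSMUSG00000074115, GRCm38 chr7:46740497-46742980), serum amyloid A, stood at 93.4 and 38.6 CPM in con and 758 and 941 CPM in Lt. Both Lt libraries exceeded both con libraries, L-con lay between the Lt libraries at 876 CPM, and Ht held 6.83 CPM. Saa1 rose by a log2 fold change of 3.69 (SE 0.51, edgeR adjusted p = 0.00247), from 3.17 without con_2 to 4.45 without con_1. Lcn2 (ENSMUSG00000026822, GRCm38 chr2:32384633-32388252), which binds bacterial iron carriers, stood at 8.59 and 1.9 CPM in con and 155 and 122 CPM in Lt (log2 fold change 4.73, SE 0.80, edgeR adjusted p = 0.00543), and was at 110.3 CPM in the sorted myeloid cells. Saa2 rose by 4.18, the plasma carrier Orm2 by 3.55 and Socs3, the brake on interleukin-6 signaling, by 1.88. The most abundant acute-phase gene was Hpx, hemopexin, at 8437 and 4255 CPM in con and 10711 and 8092 CPM in Lt with overlapping groups. The other members were not called. Their log2 fold changes were 1.14 (Saa3), 1.37 (Mt1), 1.09 (Apcs), 1.05 (Steap4), 0.99 (Orm1), 0.70 (Serpina3n), 0.57 (Hpx). Smaller were those of Hp (0.54), Fgb (0.47), Itih3 (0.47), Saa4 (0.35), Fgg (0.28), Fga (0.28), Itih4 (0.24) and Serpina3m (0.21). Below 0 lay Cp (-0.02), Lbp (-0.21), Crp (-0.25), Hamp (-1.13) and Mt2 (-3.03), the last with 201 counts in con_1 and 5 in con_2. Among named genes, edgeR's adjusted p was 0.0565 (Orm2) without con_2. With each library left out in turn, medians ran from 0.25 to 0.90 (acute phase). By total-count scaling the median came to 0.80 (acute phase). Called higher were 9 of 25 and 2 lower (acute phase) without a filter, and 6 of 25 and 1 lower (acute phase) in the 4-library fit. The test also called Steap4 under total-count scaling and in the 4-library fit, and Saa3, Mt1, Apcs, Steap4 and Mt2 without a filter.

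Measured against the median of the hepatocyte reference in place of 0, 18 of the 375 hepatocyte-list genes (4.8%) lay above it and 1 (0.267%) below it by the same edgeR test and thresholds. Over all 17187 genes the shares were 30.7% above and 0.0989% below, and the reference median is itself taken from genes of these hepatocyte lists. The counts were 10 above without con_2, 9 above without Lt_2, 2 below without con_2 and 0 below without con_1, Lt_1 or Lt_2. The 10 farthest above were Lcn2, Saa2, Saa1, Orm2, Inhba, Socs2, Socs3, Trf, Rhbg and Apcs. Trf, which encodes the iron carrier transferrin, stood at 616 and 366 CPM in con and 1823 and 1007 CPM in Lt, higher in Lt_1 than in Lt_2. No Lt value fell in the con range, and L-con was at 627 CPM. Its difference from the reference median was 2.22 on the log2 scale (edgeR adjusted p = 0.0262), and without the shift it was not called. Socs2, a brake on growth hormone signaling, stood at 25.3 and 11.1 CPM in con and 61.8 and 74.2 CPM in Lt (2.60 from the reference). Rhbg, an ammonium channel of pericentral cells, stood at 1.86 and 1.99 CPM in con and 5.16 and 4.47 CPM in Lt (2.01) and Apcs, serum amyloid P, at 173 and 83.5 CPM in con and 338 and 206 CPM in Lt (1.78). Ctsc, Steap4, Orm1, Cfb, Sqle, Mvd, Hmox1 and Serpina3n were the other 8, where Cfb, Sqle, Mvd and Hmox1 are named after their values were seen, and Ctsc and Hmox1 were at 2227 and 274 CPM in the sorted myeloid cells. Calls appeared for Rhbg under total-count scaling, and Socs2 and Trf without a filter and in the 4-library fit.

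**Figure D4:**
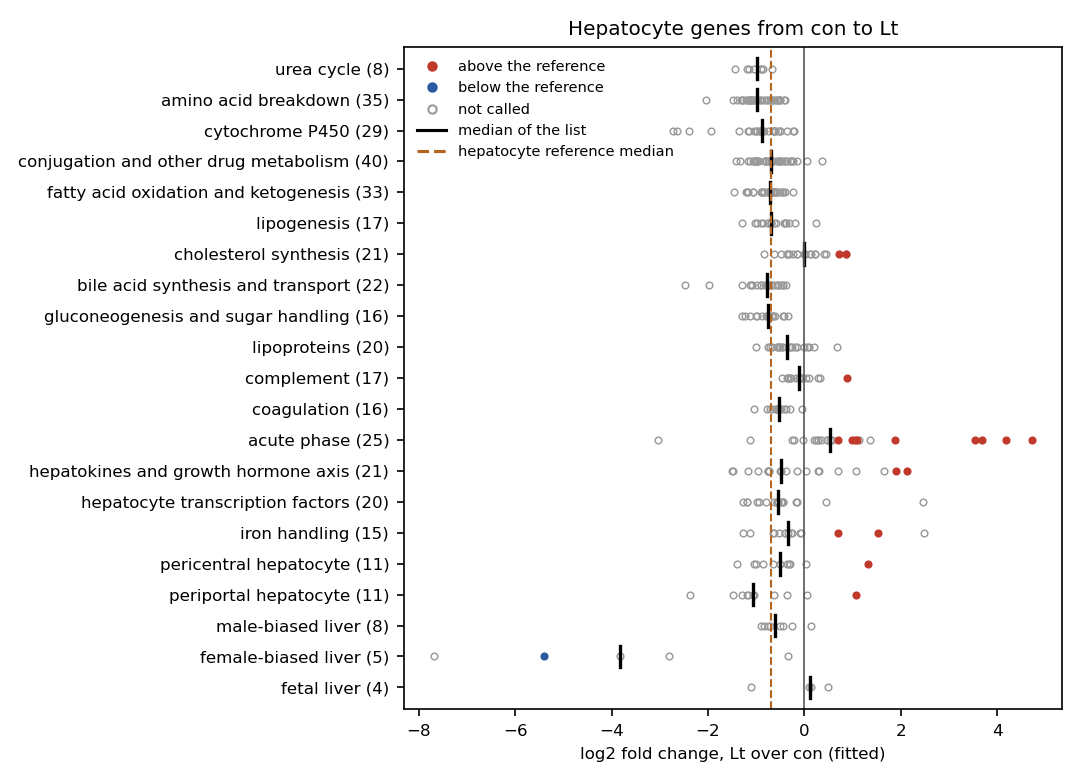
Fitted log2 fold change from con to Lt of each tested member of 21 hepatocyte lists (red and blue points called above and below the median of the hepatocyte reference, open gray points not called, black bars list medians). The dashed line is that median, -0.69, and acute-phase genes reach from -3.03 to 4.73.

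The 44 genes that fell were few and of low to middle level, and 2 were clock genes. The largest decreases by the naming rule were Slc13a2, Fam13a, Ppargc1b, Kcnk5, Tent5c, Mcc, Usp2, Fam89a, Noct, Chrnb2 and Adamts13, with the pseudogene Gm13340, the antisense transcript Gm14097, Gm11361 and the enolase Eno1b. Ppargc1b (ENSMUSG00000033871, GRCm38 chr18:61298136-61400431), a coactivator of mitochondrial and lipid genes, stood at 12.1 and 10.1 CPM in con and 3.08 and 2.59 CPM in Lt. Both Lt libraries and L-con (2.97 CPM) lay below both con libraries. Its log2 fold change was -1.97 (SE 0.30, edgeR adjusted p = 0.00333), from -2.12 without Lt_1 to -1.84 without con_1, and its difference from the hepatocyte reference was -1.28 (edgeR adjusted p = 0.00637). Usp2 (ENSMUSG00000032010, GRCm38 chr9:44067021-44095627), a deubiquitinase with a daily rhythm, stood at 31.3 and 29.8 CPM in con and 11.1 and 9.25 CPM in Lt. L-con lay between the groups at 16.8 CPM. The decrease had a log2 fold change of -1.58 (SE 0.27, edgeR adjusted p = 0.00553), from -1.74 without Lt_1 to -1.46 without Lt_2. Of 18 circadian clock genes Usp2 and Hlf, a clock-output transcription factor, were called lower, against 0.256% of all genes, and none higher, with a median of -0.63, and Nfil3, their most abundant member, stood at 106 and 59.9 CPM in con and 71.7 and 40.6 CPM in Lt. The hour of dissection is not stated for either group, so clock time and group cannot be told apart here. The log2 fold changes of the others were -2.58 for Fam13a, -3.60 for the citrate carrier Slc13a2, -1.88 for the potassium channel Kcnk5, -1.83 for the poly(A) polymerase Tent5c, -1.72 for Mcc, -1.58 for Fam89a, -1.57 for the rhythmic gene Noct, -1.53 for the nicotinic receptor subunit Chrnb2 and -1.52 for Adamts13, which cleaves von Willebrand factor and is made by stellate cells. Gm13340, Gm11361, Gm14097 and Eno1b, at -2.90 to -1.75, lost their calls without any one of con_1, con_2, Lt_1 and Lt_2 (edgeR adjusted p from 0.0767 to 0.248). When single libraries were left out, edgeR's adjusted p was 0.0564 (Usp2) without Lt_2, 0.242, 0.0903 and 0.228 (Noct) without con_1, Lt_1 and Lt_2 in turn, 0.0835, 0.0603 and 0.14 (Adamts13) without con_1, con_2 and Lt_2 in turn. The edgeR values were 0.0777, 0.059 and 0.0963 (Fam13a), 0.112, 0.0593 and 0.0964 (Fam89a), and 0.238, 0.0838 and 0.233 (Hlf) without con_2, Lt_1 and Lt_2 in turn. EdgeR gave 0.128, 0.0603, 0.061 and 0.19 (Slc13a2), 0.0867, 0.148, 0.112 and 0.208 (Kcnk5), 0.12, 0.157, 0.113 and 0.257 (Tent5c), and 0.0593, 0.153, 0.0806 and 0.191 (Chrnb2) without con_1, con_2, Lt_1 and Lt_2 in turn. Mcc and Ppargc1b were called lower in each of those fits. Under total-count scaling the median was -0.33 (clock). Calls were lost for Fam89a, Noct, Chrnb2, Adamts13, Gm14097 and Hlf under total-count scaling, Tent5c, Noct, Gm11361 and Eno1b with at least 10 counts in every library, Chrnb2 in the 4-library fit, and Gm11361 with 3 Ht samples.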

How the data were processed

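Bulk RNA-seq of mouse liver and of cells sorted from its metastases was read as the tables of raw counts per Ensembl gene that the authors deposited. Per the labels, reads were handled with CASAVA, HISAT2 2.0.5 and featureCounts 1.5.0-p3 on GRCm38 (mm10), and the annotation release is not stated. Con (2 libraries) was compared with Lt (2 libraries), which the labels name. Members of the gene lists and the comparison were chosen with earlier results of these same data known, and the lists, the naming rule and the alternatives listed below were fixed before the data were examined here.

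All 14 tissue libraries entered the fit as 13 samples of 7 groups, since Ht_1 and Ht_3 are described as made identical and were summed, so that the spread was estimated from every replicated group. Libraries held 16032085 to 18246623 counts, at which 3 counts, the floor used for a gene at 0, equal about 0.2 CPM. Genes were kept by filterByExpr of edgeR 4.0.16 (with limma 3.58.1 in R 4.3.3), scaled by TMM and tested with edgeR's quasi-likelihood F test, Benjamini-Hochberg adjusted over all genes tested. Calls needed an adjusted p no higher than 0.05 and a log2 fold change whose size reached 1. A second test moved the null from 0 to the median log2 fold change of the hepatocyte reference. For genes with no counts in con a lower bound was computed against 3 counts in each con library, and for 1 to 3 counts in con a ratio with a 95% counting interval. Levels are CPM over the TMM-scaled library size, levels between genes are TPM from the gene lengths in the table, and the 6 sorted libraries have their own TMM factors. The procedure was tested on simulated data.

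Named are the 15 genes that rose most and the 15 that fell most among called genes with groups apart and a mean log2 CPM of at least 1, up to 4 called members of each of 61 lists, the most abundant member of each list by TPM, called members whose direction differs from the list median, all members of the tumor, urea cycle, acute phase and sex-linked lists, genes the paper names, and the 10 hepatocyte-list members farthest on each side of the reference. A few genes that these rules pick are not discussed. Alternatives were total-count scaling, DESeq2 1.42.0, no filter, at least 10 counts in every library of both groups, no fold threshold, only the 4 libraries, Ht as 3 samples, a replicate block and leaving out each library. Sample numbers are not stated to be pairs, and the correlation of con and Lt values by number was -0.149, so samples were not paired. Promoters are the 250 bases before each RefSeq start on GRCm38.p6, and their letters and the printed examples were chosen after the data were seen. Letters of E2F and HNF1 sites were searched as well and are not given. Figures were drawn with matplotlib 3.10.9 in Python 3.11.15. The other groups of the series were left out of the comparison, since the question concerns con and Lt.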

Additional observations from a re-analysis of the deposited data

Results flagged for a closer look

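The 4 tumor genes Stra6, Flnc, Grem1 and Lgals7 summed to 22.7 CPM in the L-con library, a sample that no comparison uses, against 0 in both con libraries. L-con is 1 library of liver described as tumor-free and remote from the tumor, and the difference was not tested.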

How the results depend on the processing

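Counts of 4 kinds were recomputed under each alternative: genes higher (2133), genes lower (44), and hepatocyte-list genes above (18) and below (1) the median of the hepatocyte reference. Total-count scaling gave 1998 higher, 22 lower, 22 above and 1 below, of which 1904 higher and 14 lower genes were the same as before. DESeq2 gave 2357 higher, 166 lower, 25 above and 3 below (2066 and 43 the same). Without a filter on low counts the counts were 2763 higher, 377 lower, 37 above and 12 below of 29359 genes tested, and with at least 10 counts in every library of both groups 1112 higher, 20 lower, 18 above and 0 below of 12522, where fewer genes were tested. Dropping the fold threshold gave 2322 higher, 124 lower, 20 above and 1 below, and treating the Ht libraries as 3 samples 2293 higher, 71 lower, 19 above and 2 below. A fit of only the 4 libraries compared gave 1767 higher, 304 lower, 31 above and 6 below, with 1676 and 32 of the higher and lower genes the same, and 85.3% of calls higher. The count of lower genes moved by more than 1.5 times under each alternative, and that of higher genes under the count minimum of 10 and without con_1, con_2 or Lt_2. The cause was not tested.

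Leaving out each library in turn, where the lone sample left in its group is assumed to vary like the other groups, gave 720 to 2259 higher, 4 to 22 lower, 9 to 14 above and 0 to 2 below. A replicate block by sample number, as if the numbers were paired, gave 2228 higher, 108 lower, 20 above and 3 below. With the con numbers crossed, a choice made after seeing the data, the counts were 2389 higher, 106 lower, 20 above and 2 below. The labels do not say that numbers pair samples.

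Some log2 fold changes took the other sign or reached 0. By DESeq2 these were B2m (-0.00824), Cdh5 (-0.0445), Gpm6a (-0.0472), Hbb-bs (-0.039) and Plvap (-0.0382). Under total-count scaling these were the list medians of complement (0.17), cholesterol synthesis (0.29), erythroid (0.19), quiescent stellate cell (0.21), pan-endothelial (0.12) and hepatocyte (0.000744), and C6 (0.17), Cp (0.24), Crp (0.0161), Eif2s3y (0.12), Fabp1 (0.0217), Fn1 (0.26), Kdm5d (0.0474), Lbp (0.0596), Lgals9 (0.0377), Mgst1 (0.096), Mrc1 (0.0959), Pecam1 (0.26) and Vegfa (0.0788). In the fit of 4 libraries these were the median of all genes (-0.0012), the list median of VEGF and angiopoietin axis (-0.17), and Cdh5 (-0.0153), Gpm6a (-0.0287), Hbb-bs (-0.00539) and Plvap (-0.012). With at least 10 counts in every library these were the list medians of cholesterol synthesis (0.0462) and VEGF and angiopoietin axis (-0.0745), and Cp (0.0268), Fn1 (0.0249) and Pecam1 (0.031). Without a filter these were the median of all genes (0) and the list medians of pancreatic acinar (0) and erythroid (0.0336).

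Leaving out single libraries reversed log2 fold changes, given as lowest to highest, for Afp (-0.0935 to 0.33), Apoa2 (-0.77 to 0.0556), B2m (-0.0278 to 0.13), Ccl5 (-0.00202 to 3.85), Cdh5 (-0.0749 to 0.11), Cp (-0.34 to 0.22), Eif2s3y (-0.36 to 0.0344), Fabp1 (-0.68 to 0.35) and Fga (-0.17 to 0.61). The same held for Fgg (-0.13 to 0.59), Fn1 (-0.11 to 0.0332), Gpm6a (-0.64 to 0.71), Hbb-bs (-0.38 to 0.58), Hdc (-0.12 to 1.05), Hspb1 (-0.24 to 0.43), Krt8 (-0.28 to 0.60), Lbp (-0.51 to 0.0237) and Ldha (-0.14 to 0.33), and for Lgals9 (-0.57 to 0.0375), Lyve1 (-2.09 to 0.16), Mgst1 (-0.53 to 0.12), Mt2 (-4.16 to 1.39), Pecam1 (-0.26 to 0.25), Plvap (-0.13 to 0.16) and Serpina3m (-0.31 to 0.58). No gene in these sentences was called in the reported test, and the cause was not tested. Medians of the cholesterol synthesis, colon and epithelial carcinoma, complement, erythroid, hepatocyte and pan-endothelial lists took both signs over these fits, with ranges given in the report. So did that of the fetal liver list, from -0.40 to 0.41.

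Of the 219 genes compared singly, those that kept direction and side of the threshold numbered 190 under total-count scaling, 206 by DESeq2, 196 without a filter, 218 with the replicate block and 216 with 3 Ht samples, and 182, 145, 187 and 156 without con_1, con_2, Lt_1 and Lt_2. Depth limits single genes most near the floor of 3 counts.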
